A study of Drosophila melanogaster with 2 samples.

Results

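The Dpp pathway genes described here are 10 named components of BMP signalling in Drosophila melanogaster, of 13968 protein-coding genes on the 7 chromosome arms used. They are the ligand gene dpp, the antagonist gene sog, the receptor genes tkv, sax and put, the Smad genes Mad, Med and Dad, and the repressor genes brk and shn. They were looked up by symbol in the Ensembl release 115 annotation, where all 10 were found. The list was drawn up when the number of summits in shn and the promoter signal values of shn and tkv in these same peak lists were already known, so the genes were chosen by measured values. The values below describe them, and no test is made.

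The measurement was ChIP-seq for Sox102F, a SoxD-family protein that binds DNA through an HMG box. Whole embryos of 12 to 14 h came from a transgenic line that stably expresses Sox102F with GFP at its C-terminus, and an antibody against GFP was used. Both samples, numbered 2 and 3, were biological replicates of this 1 genotype and stage, and no untagged, untreated or other group was analysed here. The sources used here do not give what drives the transgene. In whole embryos, strong occupancy in few cells and weak occupancy in many cells cannot be told apart.

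A summit is the position of highest signal that the authors gave for a peak, and the signal value is the authors' own score of that peak, used here only to rank peaks within a list. The optimal list was the top 7488 of the pooled list by signal value, from 97.22 to 4785 with a median of 204.2. The pooled list and the list of each replicate held 30000 peaks each and reach weaker ones. Without read counts the depth was unknown. Each gene was given a promoter count (summits within 500 bp of any of its transcription start sites, TSSs), a gene body count (between its annotated ends) and a flank count (20 kb on either side). Intervals are exact 95% Poisson intervals, which cover counting error only.

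Dpp is a secreted BMP-type ligand, and Sog, the relative of Chordin, binds it outside the cell. The type II receptor Punt activates the type I receptors Thickveins and Saxophone, which phosphorylate the Smad protein Mad. Mad then enters the nucleus with Medea, while Daughters against dpp, an inhibitory Smad, inhibits the signalling. Brinker represses many Dpp target genes, and Schnurri joins Mad and Medea at a silencer element to shut off brk itself. In the later embryo the pathway is known for its roles in dorsal closure, the midgut, the trachea and the heart.

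To show what sequence lay under these peaks, the 101 bases centred on a summit are given for a promoter summit of tkv, for the highest gene body summits of Mad, Dad, sog and dpp, and for a pair of summits before brk. They are from the plus strand of the RefSeq sequence of dm6, and none overlaps an annotated UTR. Capitals mark words that Sox proteins are known to bind, the short ACAAT with its longer form AACAAT and the related ACAAAG. They also mark the control words TAACA and its longer form TAACAA, which are the first words read backwards, all on either strand. The tkv window (chr2L:5242637-5242737) holds a control word and no Sox word. The Mad window (chr2L:3153346-3153446) holds AACAAT and 3 copies of TAACA, some of which overlap. In the Dad window (chr3R:17065101-17065201) TAACA and ACAAT overlap in 1 run, and in the sog window (chrX:15619435-15619535) AACAAT lies on the minus strand. The dpp window (chr2L:2433596-2433696) holds none of these words. Of the windows before brk, one (chrX:7299475-7299575) holds AACAAT and TAACAA and the other (chrX:7307163-7307263) starts with ACAAT.
tkv: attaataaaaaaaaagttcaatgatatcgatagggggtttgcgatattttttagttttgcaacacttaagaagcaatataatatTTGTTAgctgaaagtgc
Mad: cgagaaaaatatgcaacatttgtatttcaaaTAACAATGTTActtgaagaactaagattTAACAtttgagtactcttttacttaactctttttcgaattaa
Dad: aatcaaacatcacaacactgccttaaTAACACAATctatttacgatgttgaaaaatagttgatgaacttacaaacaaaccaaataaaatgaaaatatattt
sog: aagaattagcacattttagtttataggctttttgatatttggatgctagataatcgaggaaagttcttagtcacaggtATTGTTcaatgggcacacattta
dpp: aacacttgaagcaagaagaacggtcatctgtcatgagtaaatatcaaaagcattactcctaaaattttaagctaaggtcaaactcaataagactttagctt
brk middle set: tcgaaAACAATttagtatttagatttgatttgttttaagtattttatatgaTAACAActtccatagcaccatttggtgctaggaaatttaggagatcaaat
brk near pair: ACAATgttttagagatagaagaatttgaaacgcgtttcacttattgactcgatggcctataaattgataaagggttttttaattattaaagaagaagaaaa

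The optimal summits in the windows of the pathway genes lay almost all in introns and in the flanks, and at 2 genes an intronic summit was at a promoter. Those promoter summits had signal values of 135 and 142, below the list median of 204.2. In the optimal list 2 of the 10 genes, tkv and shn, had a promoter summit, beside 16.9% of all protein-coding genes, a share near the background. A gene body summit was present in 7 of the 10 genes, beside 14.3% of all genes and 32.1% of the 4834 genes within the 10 genes' range of length. The 3 genes without one, sax, Med and brk, were among the shortest, at 3.58, 4.33 and 3.19 kb. The 32.1% is not matched to the length of each gene. Among other genes of 0.5 to 2 times a gene's length, the share without a gene body summit ran from 27.1% for shn to 91.4% for brk. For dpp, sog and tkv it was 34.6%, 36.2% and 28.9%, so a long gene often holds a summit. Of the 10 genes all but tkv had a summit within 20 kb on either side, as had 81.9% of all genes. The windows held 76 summits in all, of which 40 lay in gene bodies, 17 upstream and 19 downstream. Of the 36 flank summits 24 lay inside other genes, among them all 14 of brk, so a flank summit need not belong to the pathway gene. Intronic summits made up 39 of the 40 in gene bodies, and the exception lay in a 5′ UTR of sog. The intronic share of gene body summits over all genes was not computed, so this count marks no trait of the 10 genes.

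**Figure D1:**
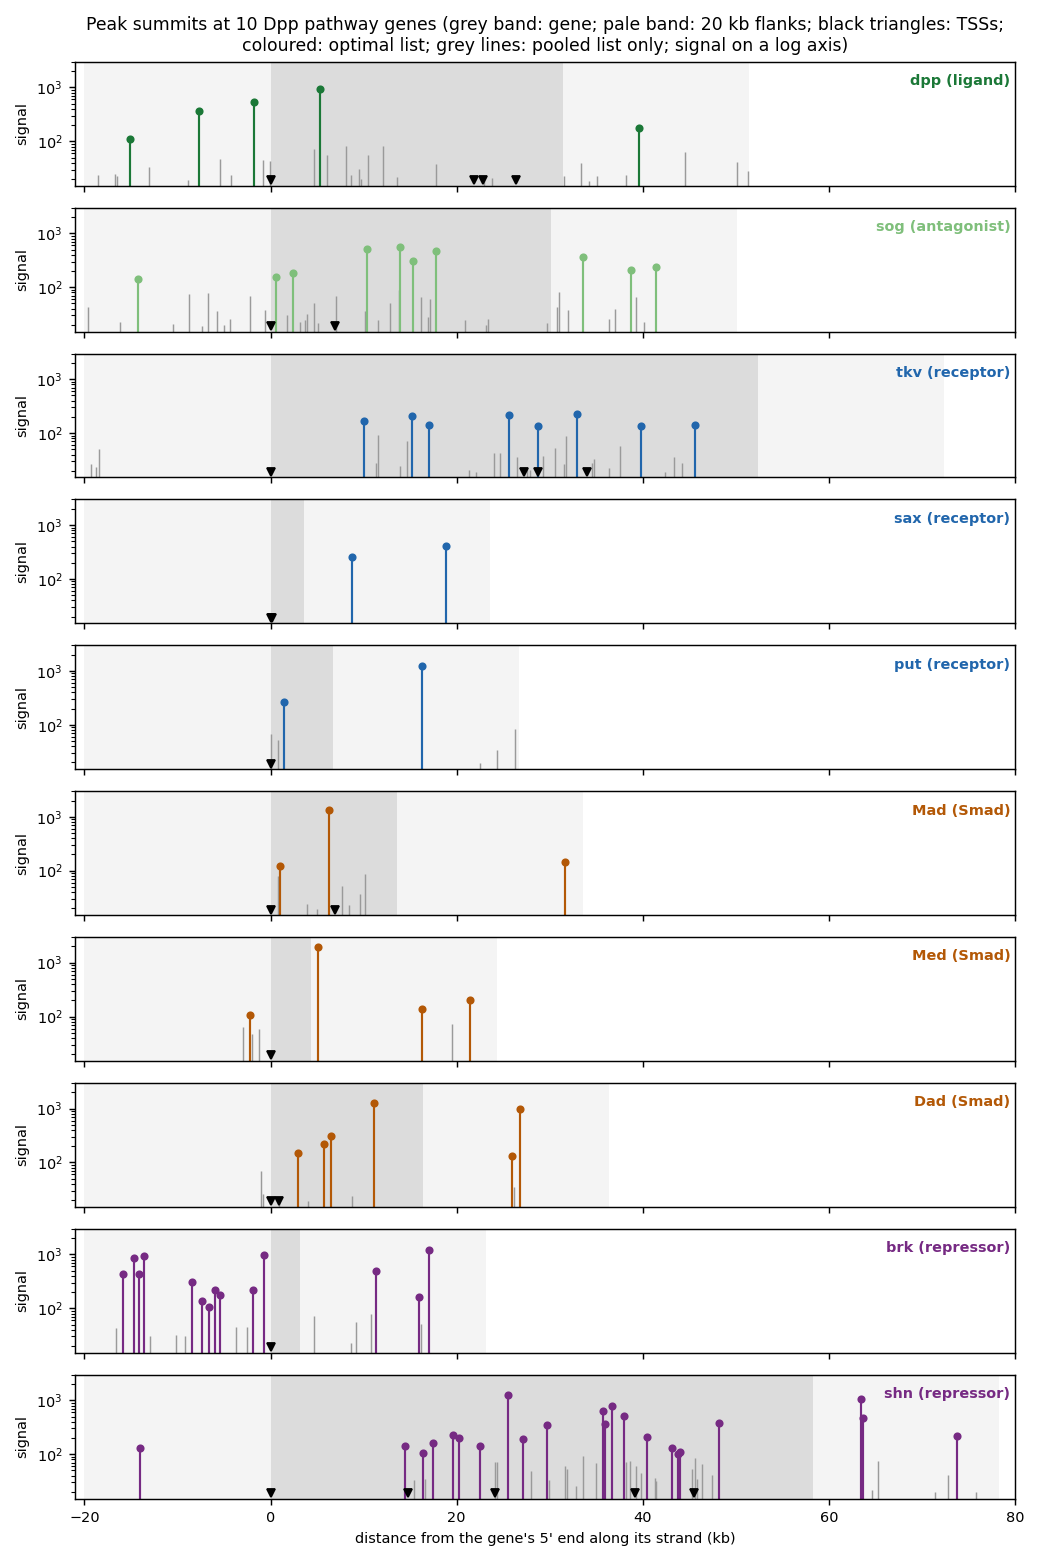
Position of every summit in the window of each of the 10 genes (kb from the gene's 5′ end along its strand) against the authors' signal value on a log axis, coloured for the optimal list and grey for summits of the pooled list alone. The grey band is the gene, the pale band its 20 kb flanks and triangles are TSSs. The 18 summits in shn fill the middle of the gene, the 11 before brk fill its upstream flank, and dpp has 1 in its gene body.

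The ligand gene dpp (FBgn0000490, chr2L:2428372-2459823, plus strand, 4 TSSs) had 1 optimal summit in 31.5 kb, or 0.318 per 10 kb (0.00805 to 1.77), beside 0.609 over the arm. That summit, at 2433646 in an intron 5274 bp from the first TSS, had a signal value of 951 and rank 381. It ranked 370 in replicate 2 and 383 in replicate 3, so both replicates placed it about equally high. Before the gene lay summits at 1740 bp (signal value 529), 7691 bp (374) and 15078 bp (112) from the first TSS. The middle one of these was 149 bp from a TSS of CG9886. The stretch after the gene, known for its imaginal disc enhancers, had 1 summit at 177. The 3 internal TSSs of dpp were 13181 to 16689 bp from any optimal summit.

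Weaker peaks were more numerous at dpp. Its gene body held 13 pooled summits (4.13 per 10 kb, 1.68 times the density of the arm), 13 in replicate 2 and 11 in replicate 3. A pooled summit 15 bp from the first TSS and another 97 bp from an internal TSS had signal values between 18.9 and 43.2, below the lowest value of the optimal list. Of 1100 genes of 0.5 to 2 times its length, 636 had a higher gene body density of optimal summits, so dpp lay in the lower part of that order.

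The antagonist gene sog (FBgn0003463, chrX:15603283-15633434, minus strand, 2 TSSs) had 6 optimal summits in 30.2 kb, or 1.99 per 10 kb (0.73 to 4.33), 3.18 times the density of X. From the 3′ side their signal values were 473, 311, 553, 515, 182 and 157. The first 4 of these lay downstream of the internal TSS, between 3481 and 10900 bp from it. All 6 were in peaks of both replicates. The summit nearest to a TSS, at 15632862 in a 5′ UTR, was 572 bp from the first TSS and just missed the 500 bp limit. In the pooled list a summit 104 bp from the internal TSS had 69.4. Of 1130 genes of like length 102 had a higher density than sog, whereas the intervals of sog and dpp overlapped.

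The type I receptor gene tkv (FBgn0003716, chr2L:5219000-5271384, minus strand, 4 TSSs) had 8 optimal summits in 52.4 kb, or 1.53 per 10 kb (0.659 to 3.01), 2.51 times the density of the arm. All 8 were intronic, some of them nearest to a coding TSS of Cyp4ac1 or TpnC25D, and all 8 were in peaks of both replicates. Their signal values had a narrow range, 135 to 226, and 3 of the 8 were above the median of the list. The promoter summit at 5242687, whose sequence is given above, lay 67 bp upstream of an internal TSS with a value of 135 and rank 5668. In replicate 2 that peak had 37.4 at rank 8091, and in replicate 3 it had 103 at rank 4894, so replicate 2 placed it below the 7488 highest. Neither flank of tkv held an optimal summit, where the density of the arm gives 1.22 per 20 kb. The first TSS was 9995 bp from a summit in the optimal and in the pooled list.

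The other receptor genes were short and held little. The type I receptor gene sax (FBgn0003317, 3.58 kb on 2R, from 7806484 to 7810067, plus strand) had no summit at its TSSs or in its gene body in any of the 4 lists. A gene of that length would hold 0.171 at the density of its arm, so an absence was not detectable. Its 2 downstream summits lay in puml (252) and in the DNA photolyase gene phr (414), the latter 73 bp from the nearest coding TSS, that of phr. The type II receptor gene put (FBgn0003169, chr3R:14619030-14625703, minus strand) had 1 intronic summit 1493 bp from its TSS with a signal value of 271 and rank 2695. It ranked 2532 in replicate 2 and 2822 in replicate 3. The strongest summit of its window, 1254 at rank 218, was 9607 bp past the gene and 219 bp from a TSS of CG14853. A pooled summit 18 bp from the TSS of put had 68.9.

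**Figure D2:**
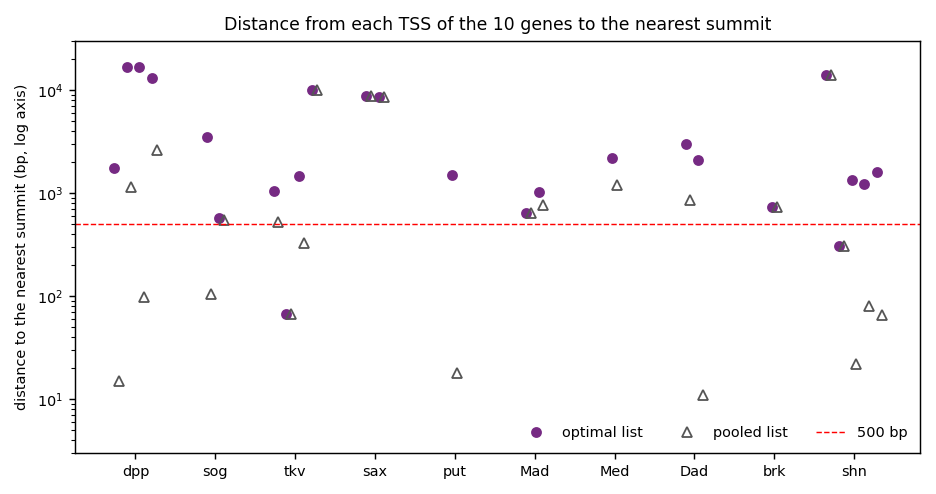
Distance in bp on a log axis from each of the TSSs of the 10 genes to the nearest summit of the optimal list (filled) and the pooled list (open), with the 500 bp limit dashed. One TSS of tkv (67 bp) and one of shn (303 bp) have an optimal summit below the line, and those of sog, Mad and brk just above it are at 572, 643 and 726 bp.

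Of the Smad genes, Mad and Dad each held a summit near the top of the list, at ranks 186 and 215. Mad, the Smad that the receptors phosphorylate (FBgn0011648, chr2L:3146056-3159643, minus strand, 2 TSSs), had 2 summits in 13.6 kb, or 1.47 per 10 kb (0.178 to 5.32). The one at 3153396 had 1326 at rank 186, and ranks of 190 and 189 in replicates 2 and 3. It lay in an intron, 643 bp upstream of an internal TSS. The other, at 3158629, had 120 and lay 1014 bp from the first TSS.

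Dad, which encodes the inhibitory Smad and is itself a known target of the pathway (FBgn0020493, chr3R:17054007-17070408, plus strand, 2 TSSs), had 4 intronic summits in 16.4 kb. This was 2.44 per 10 kb (0.664 to 6.24), 4.53 times the density of 3R. Their signal values along the gene were 151, 221, 305 and 1262. The last, at 17065151, was 10254 bp from a TSS of Dad and 7524 bp from the nearest coding TSS, that of Ns1. It ranked 215, and ranked 172 in replicate 2 and 243 in replicate 3. Downstream, a summit of 1000 lay in kuk, which encodes a protein of the nuclear envelope. Another, of 131 and 54 bp from a TSS of Keap1, was in no peak of replicate 2.

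Med, which encodes the shared partner of Smads (FBgn0288966, chr3R:31611046-31615375, plus strand, 1 TSS), had no gene body or promoter summit in the optimal or pooled list. The strongest summit of all 10 windows lay 797 bp past its end, with 1964 at rank 64, and was 12 bp from a TSS of Mnat9. The others in its flanks were in CycG (106) and in kek6 (137 and 202). Replicate 3 had 2 weak promoter summits at Med and 2 at the first TSS of Mad, with signal values of 13.2 to 23.

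The repressor gene brk (FBgn0024250, chrX:7307939-7311132, plus strand, 1 TSS) had its summits before and after the gene. It had none in its 3.19 kb, where the density of X gives 0.2, and 11 in the 20 kb before it, where the density of X gives 1.25. From the far end their signal values were 428, 851, 424, 937, 308, 139, 105, 214, 178, 221 and 983. They fell into a distal set of 4 between 13600 and 15883 bp from the TSS, a middle set of 5 between 5427 and 8414 bp, and a near pair at 1894 and 726 bp. All 11 were in peaks of both replicates. The summit at 7307213, with 983 at rank 357, ranked 386 in replicate 2 and 336 in replicate 3.

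The stretch is shared with other genes, so these summits cannot be assigned to brk by position. Both brk and its whole upstream flank lie inside the long gene CG1677. The 4 distal summits and the first of the middle set were nearer to the TSS of unc-119 than to that of brk. Over all protein-coding genes the median number of optimal summits in the 20 kb upstream was 1. A larger number than brk was found at 1 gene, Cht11 with 12, and 11 at each of CG14435, CG2865, CG43736, mtSSB and unc-119, of which unc-119 counts summits of the same stretch. Downstream of brk lay 3 more, of 502 in the autophagy gene Atg5, of 159, and of 1224 in Dok. In replicate 3 the upstream flank held 24 summits, in replicate 2 it held 18 and in the pooled list 17. Replicate 3 also had 2 promoter summits at brk, of 13.7 and 13.8, near the bottom of its list.

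The silencer element through which Mad, Medea and Schnurri are known to act on brk was then located by its letters, GNCGNC followed by 5 bases and GTCTG, on both strands. The window of brk held 12 matches in 43.2 kb, or 2.78 per 10 kb, of which 11 lay upstream. The density of X, 0.0643 per 10 kb, gives 0.278 for such a window, and all arms together held 829 matches, or 0.0605 per 10 kb. Of the other 9 genes each had 0 to 2 matches, 10 in all. No optimal summit of the 10 genes, and none of all 7488, had a match within 50 bp. At 0.0605 matches per 10 kb few would fall in such short windows. The number to expect there was not computed, so nothing is concluded from this absence. At the wider distance of 500 bp, chosen after the positions were seen, 10 of the 11 upstream matches had an optimal summit, with a median distance of 247 bp. Of the bases of that 20 kb, 45.2% were as near to a summit, with a median of 594 bp, since the summits there are dense. Of the 10 matches at the other genes, 1 was as near, with a median of 1845 bp. The share of bases as near to a summit was not computed for those genes, so this count gives no contrast with brk. Several of the 11 upstream matches lay close together, as at chrX:7299721 and chrX:7299753, so the 10 of 11 are not independent cases. A match is a string of letters and not a shown site. The 8 matches within 500 bp of summits of the distal and middle sets are given here, each read on its own strand with the bases on either side of the 5-base spacer in capitals, because they lie beside the summits without coinciding with them. Those on the plus strand are at chrX:7294094-7294109 (238 bp from a summit), chrX:7299721-7299736 (203 bp from a summit), chrX:7299753-7299768 (235 bp from a summit), chrX:7301300-7301315 (67 bp from a summit) and chrX:7302752-7302767 (247 bp from a summit). Those on the minus strand are at chrX:7291944-7291959 (105 bp from a summit), chrX:7299904-7299919 (386 bp from a summit) and chrX:7300274-7300289 (293 bp from a summit).
brk match 7291944 minus: GGCGCCcgtgcGTCTG
brk match 7294094 plus: GGCGACagactGTCTG
brk match 7299721 plus: GACGACagagtGTCTG
brk match 7299753 plus: GGCGACattctGTCTG
brk match 7299904 minus: GACGTCgctctGTCTG
brk match 7300274 minus: GGCGCCtctatGTCTG
brk match 7301300 plus: GGCGTCcgctcGTCTG
brk match 7302752 plus: GGCGGCcaaatGTCTG

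**Figure D3:**
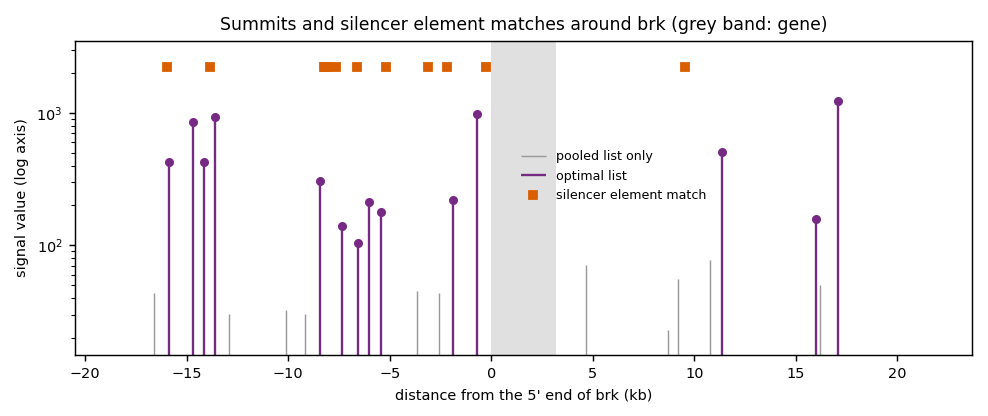
Summits around brk (kb from its 5′ end) with the signal value on a log axis, optimal list in purple and pooled list alone in grey, and matches to the letters of the silencer element as squares at a fixed height. Of the 11 upstream matches 10 lie within 500 bp of an upstream optimal summit and 1 is 1208 bp away, and the gene itself (grey band) has no summit.

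The gene shn, which encodes a large zinc finger protein (FBgn0003396, on 2R from 11159086 to 11217394, plus strand, 5 TSSs), had the most summits. Its gene body of 58.3 kb held 18, where the density of the arm gives 2.78 summits for that length. This was 3.09 per 10 kb (1.83 to 4.88), beside 0.476 over the arm, or 6.48 times. All 18 were intronic. They began 14.4 kb after the gene start, spanned 33.7 kb and ended 10.2 kb before the gene end, so both ends of the gene had none. Signal values ran from 99.2 to 1258 with a median of 204, and 9 of the 18 were above the median of the whole list. The highest was at 11184563 with rank 216, and ranks of 212 and 204 in replicates 2 and 3. Close together lay 4 of the stronger ones, at 11194814 (644), 11195019 (363), 11195814 (796) and 11197064 (518). All 18 were in peaks of replicate 2, and 16 were in peaks of replicate 3.

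The promoter summit of shn lay at 11173500, in an intron 303 bp upstream of the second TSS, with 142 and rank 5379. It had 34.7 at rank 8670 in replicate 2 and 107 at rank 4674 in replicate 3. In the pooled list 4 of the 5 TSSs had a summit within 500 bp, 7 in all, of which 6 were outside the optimal list with values of 34.2 to 86.1. Beside the third to the fifth TSS the nearest pooled summits were 22, 79 and 65 bp away. The first TSS was 14074 bp from any summit in both lists. A promoter call at shn in the optimal list thus rested on 1 of its 5 TSSs.

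Among 632 genes of 0.5 to 2 times the length of shn, 3 had a higher density, and the median was 0.4 per 10 kb. Among the nearest to it were the nuclear receptor gene ftz-f1 (15 summits, 2.96 per 10 kb) and Mnt, which encodes a partner of Max (10 summits, 3.35). Since shn was listed for its summits, this order describes the gene. Its downstream flank held summits of 1064 and 467 near CG7737, which repeat 1 peak interval, and of 218 near metro.

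By role, the density of optimal summits in gene bodies was lowest for ligand and antagonist and highest for repressors, with intervals that overlapped in part. It was 1.14 per 10 kb (0.457 to 2.34) for dpp and sog, 1.44 (0.657 to 2.73) for the receptors, 1.75 (0.642 to 3.81) for the Smads and 2.93 (1.73 to 4.63) for the repressors. Relative to the density of their arms these were 1.84, 2.42, 3.09 and 6.05 times. The repressor value came from shn alone, since brk had no gene body summit. Because shn was listed for its summits, the place of the repressors in this order is no finding. The receptor value came from tkv but for 1 summit of put. Within the first role sog had 6 summits and dpp 1 in genes of like length, with intervals that overlapped. All 10 genes together had 1.82 per 10 kb (1.3 to 2.48), and without shn 1.36 (0.852 to 2.06), 3.21 and 2.28 times their arms. In the pooled list the order changed, with 6.01, 5.27, 4.66 and 6.5 per 10 kb.

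**Figure D4:**
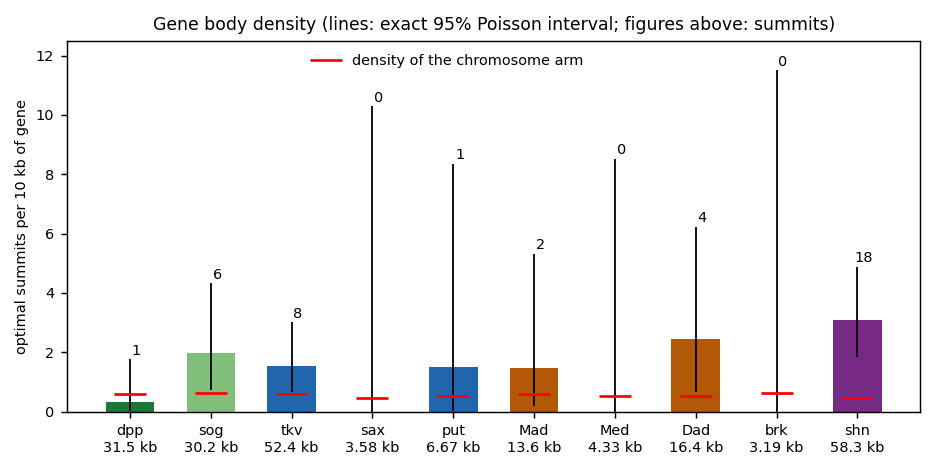
Optimal summits per 10 kb of gene body for each of the 10 genes, coloured by role, with exact 95% Poisson intervals as lines, the number of summits above and the density of the chromosome arm as a red dash. Bars run from 0 in sax, Med and brk to 3.09 in shn, whose interval starts at 1.83, and the interval of dpp includes the density of its arm.

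The longer lists added promoter summits at more genes. Those that the pooled list added had signal values below the optimal list, whereas values of the replicate lists were not compared with it. Promoter summits were found at 6 of the 10 genes in the pooled list, beside 29.5% of all genes, and gene body summits at 7, beside 23.7%. In replicate 2 the counts were 6, beside 28.6%, and 8, beside 25.2%. In replicate 3 they were 8, beside 37%, and 9, beside 27.4%. These shares of all genes are not matched for gene length or for the number of TSSs. The 10 genes include long ones with up to 5 TSSs, so a count above such a share is not read as a trait of them. The genes dpp, sog, tkv, put and shn had a promoter summit in both replicate lists, Dad in replicate 2 alone, and Mad, Med and brk in replicate 3 alone. At put the promoter summit had 19.4 at rank 16412 in replicate 2 and 54.3 at rank 8832 in replicate 3. At the internal TSS of sog it had 17.1 at rank 19027 and 46.6 at rank 10063, so replicate 3 placed both higher. The 30000-peak limit of each list decides how many such weak summits appear.

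Of the 76 optimal summits 73 lay in peaks of both replicates (96.1%, beside 94.4% of the whole list). The exceptions were the summits at Keap1 downstream of Dad and at 11176504 and 11202824 in shn. Signal values above the median of the list were found at 45 of them, or 59.2%. The optimal list was made from these replicates, so its agreement with them is no independent check.

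**Figure D5:**
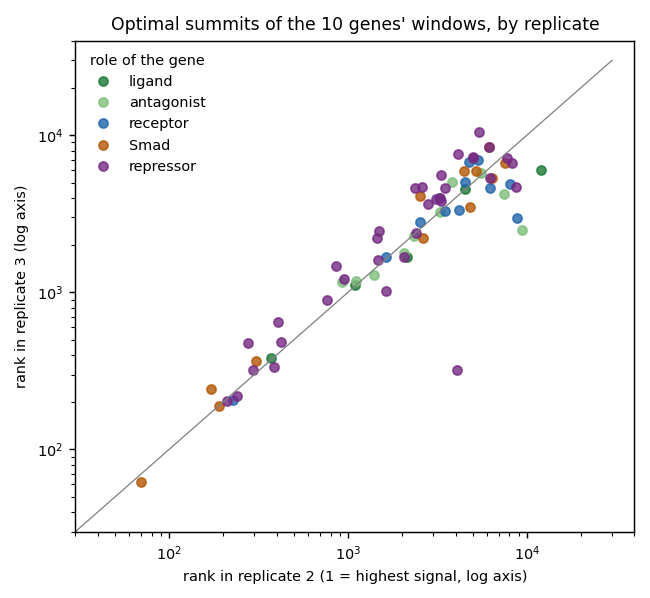
Rank of the peak holding each optimal summit of the 10 windows in replicate 2 against replicate 3, both on log axes with 1 as the highest signal value, coloured by the role of the gene. Most points lie near the line of equal rank, from the Med flank summit (70 and 62) to the weaker ranks. The point farthest below the line is the second summit of the repeated interval after shn (4086 and 319). Summits of sog (9467 and 2500), sax (8829 and 2988) and dpp (11982 and 5982) also lie below it, and a summit downstream of brk (5377 and 10512) lies above it.

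The Sox words ACAAT and AACAAT were about as frequent at the summits of the 10 genes as in the whole list, and so were their backward controls. The Sox word ACAAT was within 50 bp of 26 of 76 summits (34.2%, beside 33.9% of all 7488) and its backward control TAACA of 23 (30.3%, beside 29.9%). AACAAT was at 13 (17.1%, beside 15.4%), TAACAA at 9 (11.8%, beside 13.6%) and ACAAAG at 4 (5.26%, beside 7.6%). Words of the pathway itself were rare. GGCGCT, known to be bound by Brinker, was at 2 (2.63%, beside 1.62%), the GC-rich Mad word GCCGNC at 3 (3.95%, beside 2.87%), GGCGCC at 1 (1.32%, beside 1.11%), and the Smad box GTCTAG at none, beside 1.38%. The GATA word AGATAA was at 11 (14.5%, beside 9.05%) and the Zelda word CAGGTA at 4 (5.26%, beside 1.79%). The homeodomain word TAATTA was at 8 (10.5%, beside 11.9%) and the TCF word CTTTGA at 4 (5.26%, beside 7.02%). The 101-base windows had a median of 69.8% A and T, and those of all summits 70.3%.

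A wider list of 54 other genes of the pathway gave promoter counts near the background, with 11 (20.4%) having an optimal promoter summit beside the 16.9% of all genes. Extracellular regulators and other ligands had 4 of 13. These were magu, which encodes a secreted modulator of Dpp spread (1175), nord (435), the glypican gene dlp (329) and cv, a relative of twisted gastrulation (117). Of the activin branch and other receptors 1 of 7 had one, the type II receptor gene wit (113), and of intracellular regulators 1 of 9, sbb (1194). Targets had 5 of 25, among them the heart homeobox gene tin (787), trio (476), the GATA cofactor gene ush (313) and the zinc finger gene peb (140). Gene body density over the 54 genes was 0.984 per 10 kb, from 0.651 in the receptor group to 1.2 in the intracellular regulators.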

How the data were processed

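Anti-GFP ChIP-seq of 2 replicates (1 group) was analysed from peak lists in narrowPeak format on dm6. Per the deposited file lists, the authors called peaks for each replicate and for both pooled against a control alignment, not analysed here, and derived the optimal list from these. The sources used here do not give the aligner, the caller or their versions. The authors' signal value carries no stated scaling and was used within a list only. The deposited −log10 q-value was constant at 4.18 in the optimal list and was not used to rank. Of the optimal peaks 74 repeat another's interval and 3 have summits outside their own. All were counted.

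Summits were placed on genes of Ensembl release 115 with pandas 2.3.3 and numpy 2.4.6 under Python 3.11.15, intervals came from scipy 1.17.1, figures from matplotlib 3.10.9, and the counting was tested on planted summits. Sequence came from the RefSeq genome. Members, lists, words and settings were chosen with earlier results of these data known. Named were the 10 genes, genes at a summit given, up to 4 promoter-bound genes per wider group by signal value, and the 3 genes nearest shn in density, of which 1 is not reported here. No column of a sample was left unused.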

Additional observations from a re-analysis of the deposited data

How the results depend on the processing

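Of 66 values recomputed under other settings, 41 stayed within a limit and 25 moved further. The limit was 1.5 times for counts and, for densities, 1 SD of the values from each replicate alone, which was 0 for receptors and Smads. Members with a gene body summit were 7 in every setting tried. The 2 with a promoter summit became 1 (tkv) at 250 bp, 5 at 1000 bp and 5 when peaks rather than summits were overlapped (sog, Mad and brk added both times), 0 among peaks above the median signal, 6 in the pooled list, and 1 (shn) to 2 with one replicate left out. Keeping peaks above the median signal gave 22 gene body summits in place of 40, 23 flank summits in place of 36, and densities per 10 kb of 0.812 for ligand and antagonist, 0.639 for receptors, 1.17 for Smads and 1.46 for repressors. The pooled list gave 126, 100, 6.01, 5.27, 4.66 and 6.5. Flanks of 5 and 50 kb held 6 and 87 summits. Outside other genes the densities were 1.66 for receptors, 1.84 for Smads and 3.98 for repressors, and with summits in both replicates the repressors had 2.6. With one replicate left out, ligand and antagonist had 1.14 to 1.3. Repressors had the highest density under each of these settings, but that value is shn alone, which was listed for its summits. Its place at the top is therefore no support for a difference between roles. In the pooled list the gene sog had 7.96 per 10 kb, above shn at 6.86. The lowest density was that of receptors among peaks above the median and of Smads in the pooled list. No paired analysis was possible because there was 1 group. The depth is unknown, the short length of sax, Med and brk limits what they can show, and without an untagged control no value here measures background.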
